A study of Mus musculus with 4 samples.

Results

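The messenger RNAs of 41 mouse genes for building iron-sulfur clusters, or for proteins that hold them outside the respiratory chain, were examined in bulk hepatocellular carcinoma (HCC) tissue. The genes were listed by symbol, with earlier results of these data known. Each was found once by its Ensembl identifier in the deposited table of 55487 genes, and all 41 passed the filter on low counts together with 16310 genes in all. Tumours came from 4 mice, 2 of them labelled wild type and 2 labelled Tfrc knockout. The study was set up to ask how Tfrc, the receptor that brings transferrin-bound iron into cells, acts on the tumour microenvironment. The deletion was conditional to the liver through Alb-cre, a Cre recombinase driven by the albumin promoter and so active in hepatocyte-lineage cells. The tumours arose spontaneously under c-Myc, and the model is named Alb-cre H11-myc. Each library is thus 1 tumour-bearing mouse. Whether the wild type mice carried Alb-cre, which exons were removed, and the age and sex of the mice are not given in the sources used here.

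Iron-sulfur clusters are small inorganic cofactors that proteins use to pass electrons, bind substrates and hold their shape. In mitochondria a cysteine desulfurase supplies sulfur, a scaffold protein joins it to iron, and chaperones and carrier proteins pass the new cluster on. A sulfur-containing product leaves the mitochondria and feeds a separate cytosolic assembly machinery, which fits clusters into enzymes of translation, tRNA modification, DNA replication and DNA repair. Iron taken up through the transferrin receptor is a main source for this synthesis in dividing cells.

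The libraries held between 15918349 and 17052943 counts, so 3 counts in a library amounted to 0.176 to 0.188 CPM (a count relative to the library's total). Counts of Tfrc itself were 8441 and 3603 in the wild type libraries and 5407 and 3244 in the knockout libraries, or 460 and 234 CPM against 334 and 205 CPM after TMM scaling. The groups overlapped, the fitted log2 fold change was -0.37 (SE 0.45, edgeR adjusted p = 0.833), and without wild type 1 it was 0.16. Bulk Tfrc counts therefore did not separate the labels, and the libraries are called by their labels throughout. Tumour tissue also holds cells in which Alb-cre is not active, and the removed exons are not given. The part of either in these counts was not tested. Wild type 2 stood apart, at 86.6 on the first principal component (48.2% of variance) against -38.5 to -11.2 for the other libraries. The share of counts from genes encoded in mitochondrial DNA was 8.69% and 4.13% in wild type 1 and 2 and 9.8% and 16.63% in knockout 1 and 2. The summed level of 7 hepatocyte markers was 13417 and 45363 CPM in wild type 1 and 2 and 34704 and 31527 CPM in knockout 1 and 2. The lowest and the highest sum were thus both in the wild type. None of the 7 was at 0. Their differences were 5 positive and 2 negative (median log2 fold change 0.04). Without wild type 2 the split was 6 to 1 (median 0.85), and without wild type 1 it was 2 to 5 (median -0.35). These genes mark liver tissue and do not distinguish carcinoma from normal hepatocytes. In bulk tissue, fewer cells of a type and less RNA per cell cannot be told apart.

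None of the 41 genes differed between knockout and wild type at an adjusted p under 0.05 in edgeR's quasi-likelihood test, in DESeq2 or in limma-voom. In the same comparison edgeR called 0 of 16310 genes (0%, with 1354 at an unadjusted p under 0.05), DESeq2 called 148 (0.907%) and limma-voom called 1 (0.00613%). The smallest adjusted p among the 41 genes was 0.547. At an unadjusted p under 0.05, edgeR listed 3 of 41 genes (7.32%), Ciapin1 and Ndor1 with higher means and Gfer with a lower mean in the knockout, beside 8.3% of all genes tested (3.95% higher and 4.35% lower). That share is near the background. All 3 were listed in the cytosolic role, in both directions, and that grouping was not tested.

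The direction of the fitted differences was uneven. Log2 fold changes were negative for 27 of 41 genes (65.9%), beside 49.6% of all genes tested, with a median of -0.14 beside 0.01. They lay between -0.86 and 1.19. In 9 genes (22.0%) both knockout libraries were above both wild type libraries, beside 21.9% of all genes tested, and in 10 (24.4%) both were below, beside 20.1%. In the other 22 the groups overlapped, and in all 42% of genes tested had groups that did not overlap. The 95% interval lay within a 2-fold difference in either direction for 14 of the 41 genes. For the other 27 a 2-fold difference in at least 1 direction was not excluded by these 4 libraries.

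**Figure D1:**
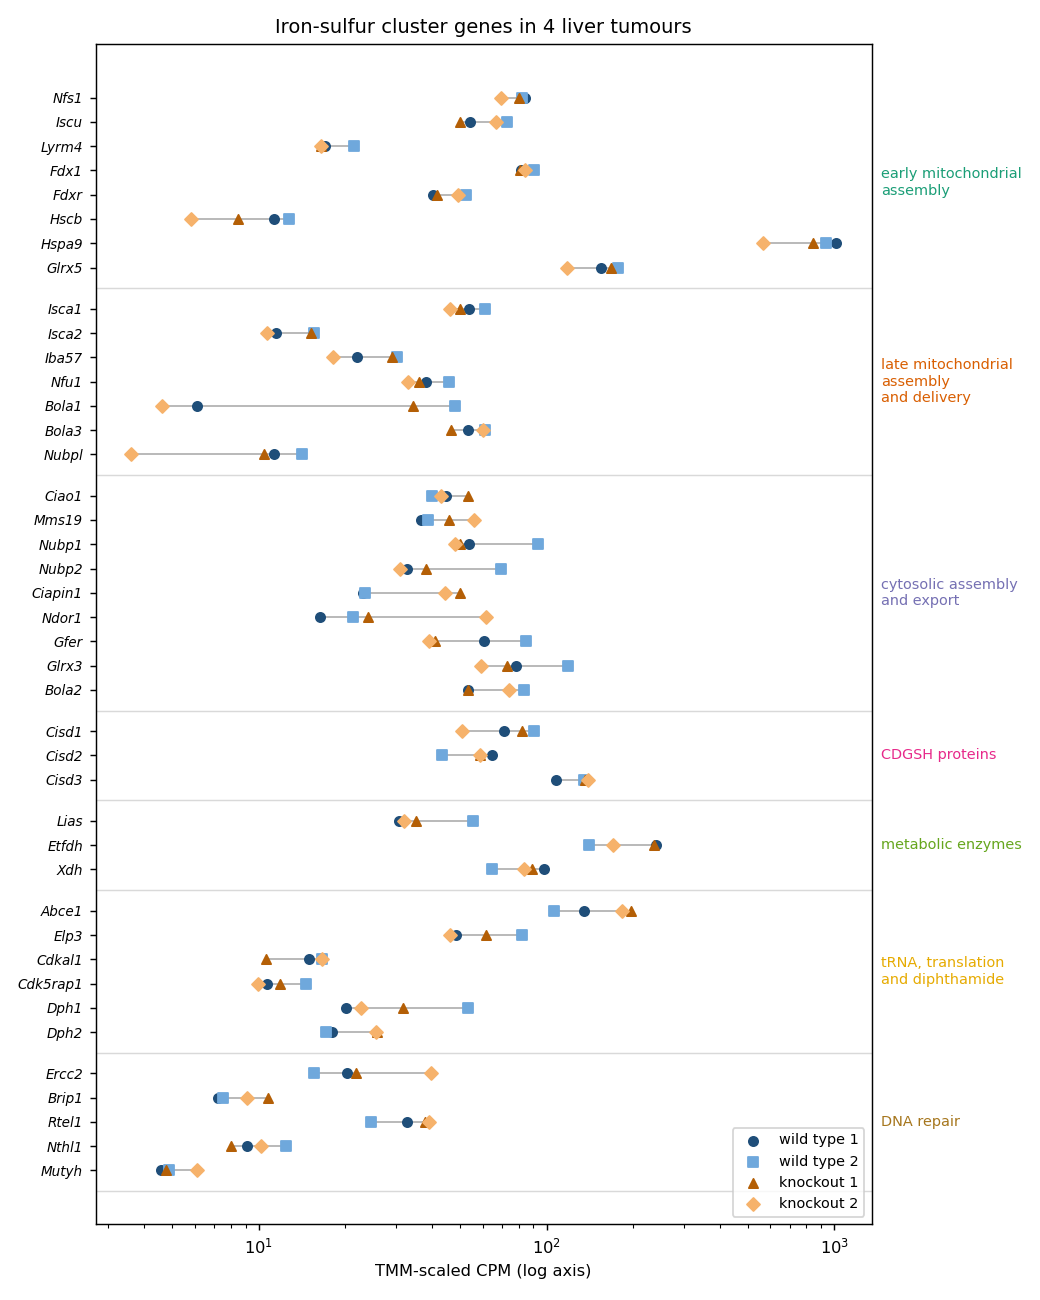
TMM-scaled CPM (log axis) of the 41 genes in each of the 4 libraries, with genes grouped by role and a grey line from the lowest to the highest library. Wild type 2 was the highest library for 25 genes and knockout 2 the lowest for 18, and Bola1 has the widest gaps within both groups.

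A single library often stood at the edge of the range. Wild type 2 was the highest of the 4 for 25 of 41 genes, whereas it was highest for 31.4% of all genes tested. Knockout 2 was the lowest for 18 of 41, beside 23.4% of all genes tested. Leaving out wild type 2 left 17 of 41 genes negative and moved the median to 0.07, so the excess of negative differences rested on that library. Leaving out wild type 1 gave 28 negative genes and a median of -0.35. In all, 20 genes kept the sign of their difference whichever library was left out, and 21 did not.

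**Figure D2:**
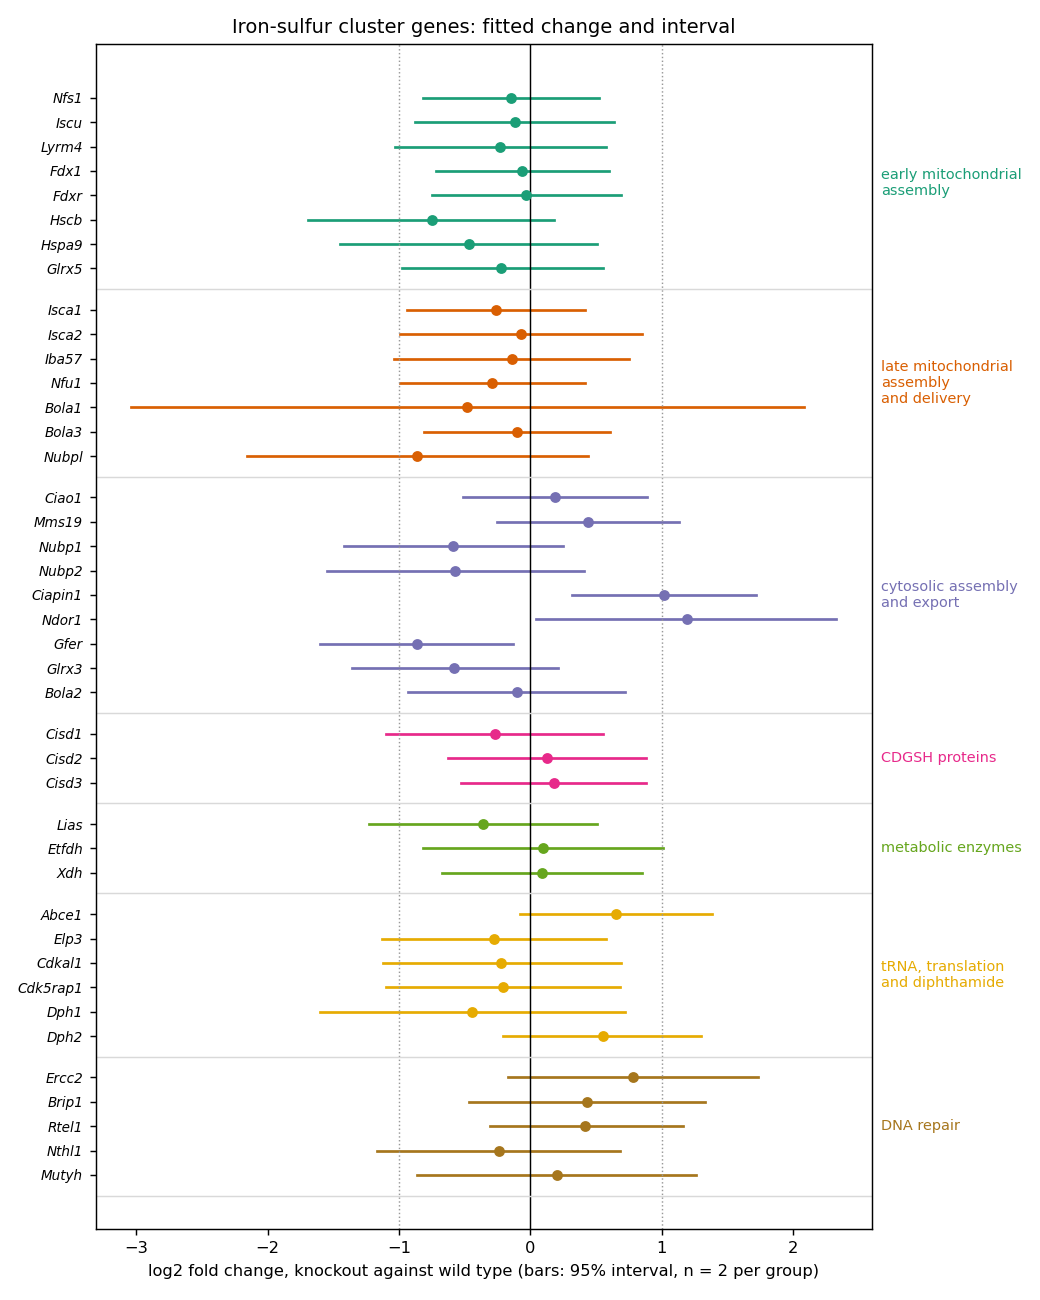
Fitted log2 fold change, knockout against wild type, of the 41 genes (points) with 95% intervals (bars, n = 2 per group), coloured by role. Dotted lines mark 2-fold differences; the 15 mitochondrial assembly genes all lie left of 0, and the intervals of Ciapin1, Ndor1 and Gfer do not reach 0.

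Early mitochondrial assembly was represented by 8 genes, and all 8 had negative differences with a median log2 fold change of -0.18. None passed the test. In 4 of them both knockout libraries were below both wild type libraries, beside 20.1% of all genes tested, and that count was not tested. The sulfur-donating desulfurase Nfs1 was at 83.3 ± 1.4 CPM (mean ± SD, n = 2 here and below) in the wild type and 74.9 ± 7.69 in the knockout. Its stabilising partner Lyrm4 was at 19.2 ± 3.11 and 16.4 ± 0.0501 CPM. The scaffold Iscu was at 63.6 ± 12.9 and 58.4 ± 11.9 CPM, a difference within the spread of either group. The processed pseudogene Gm16437 matches Iscu at 98.4% over 504 bases. The ferredoxin Fdx1 and its reductase Fdxr, which pass on electrons, were at 85.8 ± 6.36 and 46.4 ± 8.66 CPM in the wild type against 82.2 ± 2.35 and 45.4 ± 5.21 in the knockout, with log2 fold changes of -0.06 and -0.03. Glrx5, a glutaredoxin that carries the cluster away from the scaffold, was at 165 ± 15.8 and 142 ± 34.9 CPM.

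The chaperone pair that acts on the scaffold had the largest differences of this step. Hscb, the co-chaperone, was at 11.3 and 12.7 CPM in wild type 1 and 2 and at 8.45 and 5.8 CPM in knockout 1 and 2. Both knockout libraries were the lower ones, and the log2 fold change was -0.75 (SE 0.39, edgeR adjusted p = 0.636). Hspa9, the mitochondrial HSP70 that it assists, was at 1016.5 and 937 CPM in the wild type and at 844 and 565 CPM in the knockout. The groups did not overlap and knockout 2 was well below the rest. Its log2 fold change was -0.47 (SE 0.41, adjusted p = 0.759), and values without 1 library ranged from -0.82 to -0.21. Hspa9 also folds many imported proteins and is not specific to cluster synthesis.

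The late mitochondrial step, in which larger clusters are formed and handed to their recipients, was represented by 7 genes. All 7 differences were negative, with a median of -0.26, and none passed the test. Wild type 2 was the highest library for each of the 7, and knockout 2 the lowest for 6. Isca1, Isca2 and Iba57, which form the larger clusters together, were at 57.5 ± 5.48, 13.5 ± 2.9 and 26.1 ± 5.93 CPM in the wild type and at 48.0 ± 2.73, 12.9 ± 3.19 and 23.6 ± 7.74 CPM in the knockout. Of these 3, Isca1 alone had groups that did not overlap. Transcripts of Isca1 match the gene AK157302 at 99.0% over 1914 bases, and AK157302 had 286 and 238 wild type counts and 236 and 139 knockout counts. Nfu1 and Bola3, which help deliver clusters to lipoate synthase and respiratory complexes, were at 42.1 ± 5.4 and 57.3 ± 5.67 CPM against 34.5 ± 2.24 and 53.5 ± 9.57 CPM. The groups did not overlap for Nfu1 (log2 fold change -0.29) and overlapped for Bola3 (-0.10). The processed pseudogene Gm7859 matches Nfu1 at 95.7% over 771 bases.

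Nubpl, which delivers clusters to respiratory complex I, had the largest negative difference among the 15 mitochondrial genes. The gene (ENSMUSG00000035142, mm10 chr12:52097737-52312744, plus strand) was at 11.3 and 14.2 CPM in the wild type, from 208 and 218 counts, and at 10.4 and 3.6 CPM in the knockout, from 169 and 57 counts. Knockout 2 was far below the other libraries, whereas knockout 1 was close to wild type 1. The log2 fold change was -0.86 (SE 0.55, edgeR adjusted p = 0.677). It was -0.29 without knockout 2 and -1.86 without knockout 1, so its size was set by knockout 2.

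Bola1, a partner of Glrx5 in mitochondria, varied most within groups. The gene (ENSMUSG00000015943, mm10 chr3:96196588-96219709, minus strand) had 112 and 741 counts in wild type 1 and 2 and 556 and 73 counts in knockout 1 and 2. These are 6.1, 48.1, 34.3 and 4.6 CPM, a 7.89-fold gap between the wild type libraries and a 7.45-fold gap between the knockout libraries. High and low libraries occurred in both groups, and the difference between groups (log2 fold change -0.48, 95% interval -3.04 to 2.08, adjusted p = 0.914) was far smaller than the spread within them. A gap of at least 5-fold within both groups was found for 124 of 16310 genes tested, and for 34 of them (0.208%) the order of the replicates was opposite in the 2 groups, as for Bola1. No other gene among the 41 had such gaps. No exon base of Bola1 is shared with another annotated gene.

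Both mitochondrial steps together gave 15 negative differences out of 15, with a median of -0.22. The other 26 genes gave 14 positive and 12 negative, with a median of 0.09. Wild type 2 was the highest library for 13 of the 15 and knockout 2 the lowest for 11. The 15 negative signs stood under each other scaling, filter and test that was run, but not under the removal of libraries. Without wild type 2, 8 of 15 were negative with a median of -0.05. Without knockout 1 there were 12, without knockout 2 there were 11, and without wild type 1 all 15 were negative with a median of -0.39. By gene, 7 of the 15 kept their sign whichever library was left out, namely Nfs1, Lyrm4, Hscb, Hspa9, Isca1, Nfu1 and Nubpl. The share of counts from mitochondrial DNA moved the opposite way to these nuclear genes, lowest in wild type 2 and highest in knockout 2. Its part in the result was not tested, and with the genes of mitochondrial DNA removed before scaling all 15 were again negative, with a median of -0.23. Nuclear markers of mitochondrial mass were Cs, Vdac1, Tomm20, Hspd1, Timm44 and Tfam. They summed to 2113 and 2151 wild type CPM and 2074 and 1652 knockout CPM. Most of each sum was Hspd1, at 1391 and 1420 CPM in the wild type and 1212 and 967 CPM in the knockout. The 6 genes gave 3 positive and 3 negative differences. That split was 1 positive to 5 negative without knockout 1. It was 4 to 2 without wild type 1 or without knockout 2, and 3 to 3 without wild type 2.

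**Figure D3:**
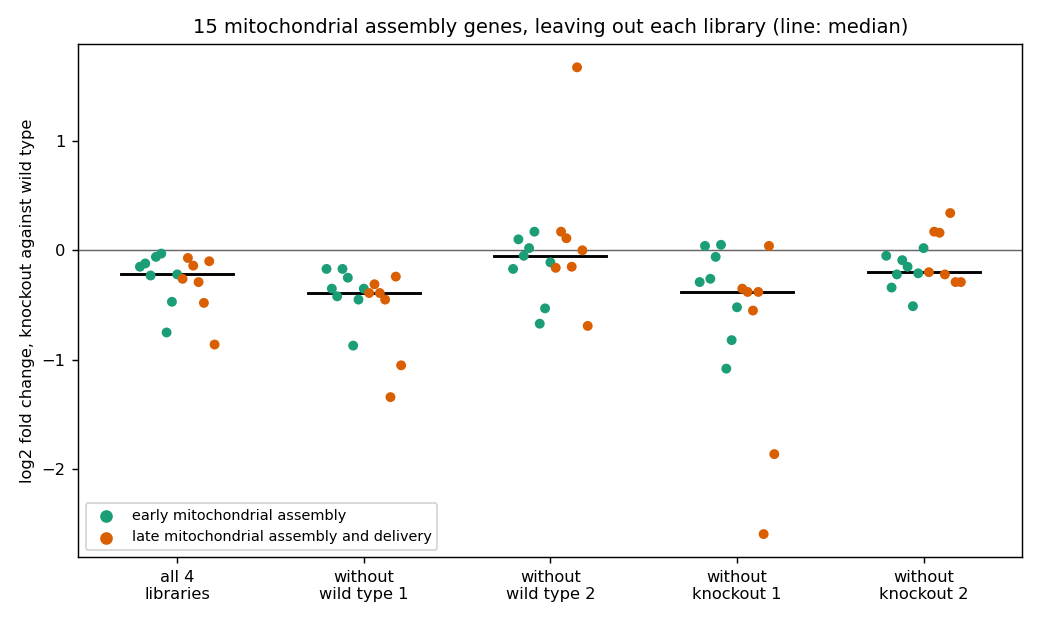
Log2 fold change, knockout against wild type, of the 15 mitochondrial assembly genes (points, coloured by early or late step) in the fit of all 4 libraries and in fits without 1 library each; lines are medians. All 15 points lie below 0 with all libraries and without wild type 1, and 8 of 15 without wild type 2.

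Cytosolic assembly and export differed in direction from gene to gene. Of 9 genes, 4 had positive and 5 negative differences, and the median was -0.10. Groups did not overlap in 3 genes with the knockout higher and in 3 with the knockout lower (33.3% each). Over all genes tested these shares were 21.9% and 20.1%, and the excess was not tested. Without wild type 2, 6 were positive and the median was 0.11. The 3 genes with an unadjusted p under 0.05 were among these 9, with Ciapin1 and Ndor1 higher and Gfer lower in the knockout. Over all 41 genes that share was near the background. Ciapin1 (anamorsin) and Ndor1 form the electron-transfer pair of the cytosolic branch, in which the flavoprotein Ndor1 reduces Ciapin1. Gfer is the sulfhydryl oxidase of the mitochondrial intermembrane space and has been linked to cytosolic cluster maturation.

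Ciapin1 had the smallest p of the 41 genes and little spread within groups. The gene (ENSMUSG00000031781, mm10 chr8:94819804-94838358, minus strand) had 422 and 359 wild type counts and 808 and 703 knockout counts, or 23.0, 23.3, 49.8 and 44.3 CPM. Both knockout libraries were far above both wild type libraries, about 2-fold. Means were 23.2 ± 0.243 and 47.1 ± 3.89 CPM, with a log2 fold change of 1.02 (SE 0.30, 95% interval 0.32 to 1.72, edgeR adjusted p = 0.547). The adjusted value did not pass the threshold, nor did that of DESeq2 (0.221). The value ranged from 0.91 to 1.11 when 1 library was left out. Exon bases shared with other genes amounted to 9.1%, nearly all with the processed pseudogene Gm7418 on the opposite strand, which had 0 counts in all 4 libraries.

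Ndor1 had the largest positive difference of the 41 genes. The gene (ENSMUSG00000006471, mm10 chr2:25244821-25256022, minus strand) had 300 and 327 wild type counts and 389 and 975 knockout counts, or 16.3, 21.2, 24.0 and 61.5 CPM. Knockout 2 was far above the other libraries, and knockout 1 was just above wild type 2. Its log2 fold change, 1.19 with an SE of 0.48 and a 95% interval of 0.04 to 2.33, had an edgeR adjusted p = 0.597. It was 0.35 without knockout 2 and 1.68 without knockout 1.

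The value of Ndor1 is uncertain because 68.6% of its exon bases are shared with other annotated genes. A second entry named Ndor1 (ENSMUSG00000115074) on the same strand covers 55.0%. It had 2 and 0 wild type counts and 0 and 2 knockout counts. AL732309.1, also on the same strand, covers 35.0%. AL732309.1 had 398 and 111 wild type counts and 470 and 29 knockout counts, so that it was lowest where Ndor1 was highest. With the same-strand genes summed, counts were 700 and 438 against 859 and 1006, or 38.1 and 28.5 against 53.0 and 63.4 CPM. The summed groups did not overlap, knockout 1 and 2 lay closer together than for Ndor1 alone, and the log2 fold change was 0.81 (adjusted p = 0.590).

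Gfer was lower in both knockout libraries. The gene (ENSMUSG00000040888, mm10 chr17:24693187-24696156, minus strand) had 1115 and 1309 wild type counts and 666 and 620 knockout counts, or 60.7, 85.1, 41.1 and 39.1 CPM. The knockout libraries agreed closely and the wild type libraries did not. Means were 72.9 ± 17.2 and 40.1 ± 1.4 CPM, with a log2 fold change of -0.86 (SE 0.31, 95% interval -1.60 to -0.13, edgeR adjusted p = 0.572). It was -0.60 without wild type 2 and -1.12 without wild type 1. A stretch of 573 bases of Gfer transcripts matches an annotated transcript of Dst at 99.8%, so reads from that stretch cannot be assigned to 1 gene by sequence.

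**Figure D4:**
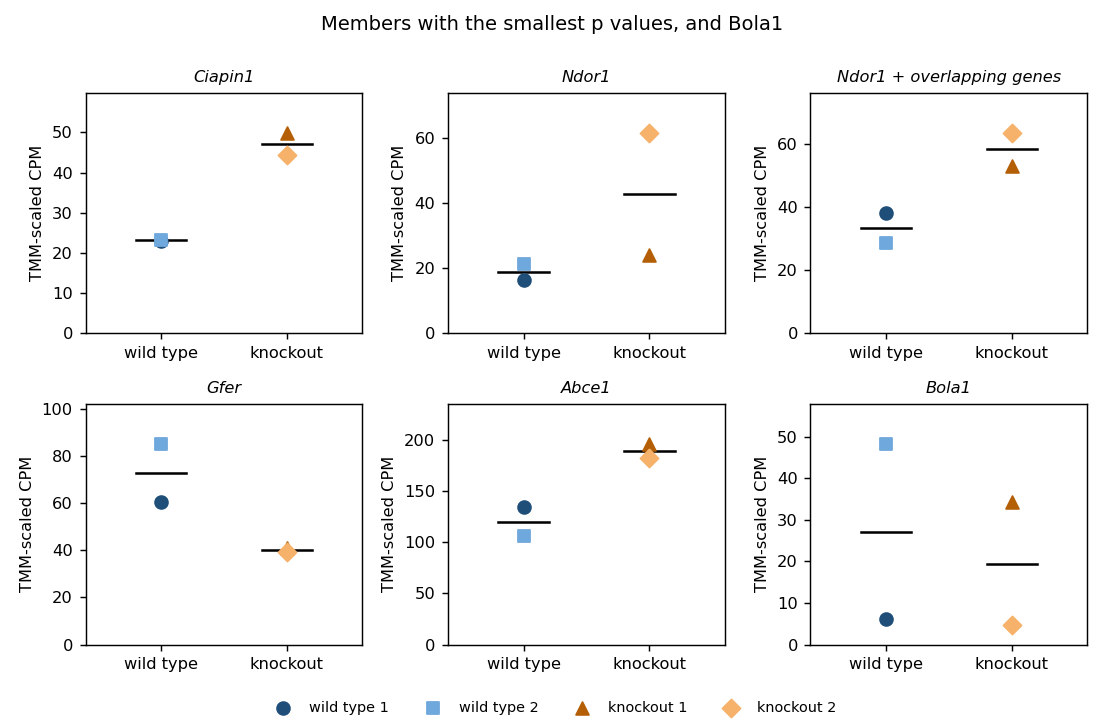
TMM-scaled CPM by group for the 4 genes with the smallest p (Ciapin1, Gfer, Ndor1 and Abce1), for Ndor1 summed with the genes that overlap it on its strand, and for Bola1; points are libraries and lines are means of 2. Groups overlap only for Bola1, and in the Ndor1 panel 1 knockout library lies just above wild type 2.

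Of the other cytosolic genes, Nubp1 and Nubp2, which form the scaffold, were highest in wild type 2. Nubp1 was at 73.6 ± 28.1 and 49.0 ± 1.57 CPM and Nubp2 at 51.2 ± 26 and 34.5 ± 5.15 CPM in wild type and knockout. The log2 fold change of Nubp1 was -0.59 with all libraries and -0.13 without wild type 2. For Nubp2 the values were -0.57 and 0.07. Exons of Nubp1 share 36.9% of their bases with genes that include Tvp23a on the opposite strand, and whether counting used strand is not stated in the sources used here.

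Ciao1 and Mms19, which hand finished clusters to target enzymes, had positive differences of 0.19 and 0.44. Ciao1 was at 42.3 ± 3.49 and 48.2 ± 7.44 CPM and Mms19 at 37.6 ± 1.41 and 51.0 ± 7.29 CPM. Only Mms19 had groups that did not overlap. Glrx3 and Bola2 form a complex that carries clusters in the cytosol. Glrx3 was at 78.3 and 119 CPM in the wild type and at 72.9 and 59.2 CPM in the knockout, both knockout libraries being lower, with a log2 fold change of -0.58 (SE 0.33, edgeR adjusted p = 0.660). It was -0.25 without wild type 2 and -0.88 without wild type 1. Summed with Gm12669, a processed pseudogene 99.1% identical over 1014 bases, it was -0.60. Bola2 was at 68.3 ± 21 and 63.6 ± 14.6 CPM, a difference within the spread.

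Promoter letters are shown for members of the assembly machinery because the tumours are driven by c-Myc, whose heterodimer with Max binds the E-box, CACGTG. Promoter windows of 300 bases (250 before to 50 after the start site) were available from RefSeq (GRCm38.p6) for 35 of the 41 genes, in 42 windows. Dph2, Elp3, Hscb, Hspa9, Iscu and Xdh had no entry. CACGTG, which reads the same on both strands, occurred in 5 of the 42 windows (11.9%), belonging to Nubpl, Nubp2, Mms19 and Dph1, and in 2349 of all 32851 windows (7.15%). The windows of Ciapin1, Ndor1 and Gfer held no CACGTG. The 3 stretches of the assembly genes below are 60 bases each, 5′ to 3′ on the strand of the gene, with the E-box in capitals. Each ends before the RefSeq start site. Those of Nubpl and Mms19 lie outside the GENCODE M21 span of their gene. That of Nubp2 lies within its span (chr17:24882611-24886349), which begins further upstream than the RefSeq start. Those of Nubpl and Nubp2 end 11 bases before the start, and that of Mms19 ends 71 bases before it.
Nubpl, chr12:52097676-52097735, plus strand: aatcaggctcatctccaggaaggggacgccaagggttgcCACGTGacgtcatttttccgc
Nubp2, chr17:24885952-24886011, minus strand: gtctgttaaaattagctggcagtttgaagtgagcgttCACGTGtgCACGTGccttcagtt
Mms19, chr19:41981201-41981260, minus strand: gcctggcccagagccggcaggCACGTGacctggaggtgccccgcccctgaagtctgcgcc
Nubp2 carries 2 copies. The 4 genes with the letters had log2 fold changes of -0.86 (Nubpl), -0.57 (Nubp2), 0.44 (Mms19) and -0.44 (Dph1), in both directions. A match of letters is a description and shows no binding.

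The CDGSH proteins hold a cluster at the outer mitochondrial membrane (Cisd1), in the endoplasmic reticulum (Cisd2) and in the mitochondrial matrix (Cisd3). None passed the test. Cisd3 was at 108 CPM in wild type 1, 135 in wild type 2, 136 in knockout 1 and 139 in knockout 2, so wild type 1 alone was low and the log2 fold change was 0.18 (SE 0.30, edgeR adjusted p = 0.880). Cisd1 was at 71.0 and 90.3 CPM in the wild type and 82.5 and 50.8 CPM in the knockout. Its groups overlapped, knockout 2 was the lowest, and the log2 fold change was -0.27 (SE 0.35, adjusted p = 0.837). Cisd2 was at 53.8 ± 15.1 and 58.7 ± 0.00211 CPM.

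The 3 metabolic enzymes had overlapping groups. Lias, which makes the lipoyl cofactor of mitochondrial dehydrogenases, was at 30.7 and 55.4 CPM in the wild type and 35.1 and 31.9 CPM in the knockout. Wild type 2 was high and the other libraries were alike, with a log2 fold change of -0.36 (SE 0.37, edgeR adjusted p = 0.792). Etfdh, which passes electrons from fatty acid and amino acid oxidation to ubiquinone, was at 239.6 and 140.5 CPM against 236.9 and 169.6 CPM, with 1 high and 1 lower library in each group (log2 fold change 0.10, SE 0.38, adjusted p = 0.956). Xdh, the xanthine dehydrogenase that makes uric acid, was at 81.2 ± 23.4 and 86.3 ± 4.2 CPM.

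Translation, tRNA modification and diphthamide synthesis were represented by 6 genes, 2 with positive and 4 with negative differences. The median was -0.22, but without wild type 2 the split was 5 positive to 1 negative with a median of 0.29, and without knockout 1 it was 3 to 3. In the 2 positive genes both knockout libraries were above both wild type libraries, as in 21.9% of all genes tested. Abce1, the ATPase that splits ribosomes after termination, was at 135 and 106 CPM in the wild type and 196 and 182 CPM in the knockout. The groups did not overlap (120.3 ± 20.6 and 189 ± 9.5 CPM), but the log2 fold change of 0.65 (SE 0.31, 95% interval -0.08 to 1.38) did not pass the test (edgeR adjusted p = 0.629). It ranged from 0.49 to 0.80 when 1 library was left out. Dph2, a subunit of the enzyme that begins diphthamide synthesis on elongation factor 2, was at 17.6 ± 0.579 and 25.6 ± 0.0377 CPM, a log2 fold change of 0.55 (adjusted p = 0.663).

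Dph1, the other subunit of that enzyme, differed in the opposite direction, at 36.7 ± 23.5 and 27.1 ± 6.32 CPM, with wild type 2 well above the rest. Summed with Ovca2, which overlaps it on the same strand, its log2 fold change moved from -0.44 to -0.22. Elp3, the catalytic subunit of Elongator, was at 65.3 ± 23.7 and 53.9 ± 10.8 CPM. The methylthiotransferases Cdkal1 and Cdk5rap1, which modify cytosolic and mitochondrial tRNAs, were at 15.8 ± 1.21 and 12.6 ± 2.74 CPM in the wild type and 13.6 ± 4.18 and 10.9 ± 1.37 CPM in the knockout. These 3 genes had overlapping groups.

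Most of the 5 DNA repair genes had positive differences, unlike the mitochondrial genes, and this contrast was not tested. Of the 5, 4 were positive, beside 50.4% of all genes tested, with a median of 0.42. In each fit that left out 1 library 4 remained positive, with medians between 0.25 and 0.36. These fits share libraries and are not independent. None passed the test. Ercc2, the helicase subunit of the transcription and repair factor TFIIH, was at 20.2 and 15.6 CPM in the wild type and 21.7 and 39.7 CPM in the knockout. Knockout 2 stood above the rest, and the log2 fold change of 0.78 (SE 0.40, edgeR adjusted p = 0.634) was 0.28 without it. Exon bases shared with other genes amounted to 42.7% for Ercc2, mainly with Gm26852 and Klc3 on the opposite strand. Brip1, a helicase of the Fanconi anaemia pathway, was at 7.36 ± 0.246 and 9.94 ± 1.21 CPM, and Rtel1, a helicase that protects telomeres, at 28.6 ± 5.65 and 38.4 ± 0.693 CPM. Neither had overlapping groups. The base excision glycosylases Nthl1 and Mutyh were at 10.8 ± 2.34 and 4.72 ± 0.211 CPM in the wild type and 9.09 ± 1.51 and 5.43 ± 0.968 CPM in the knockout, with overlapping groups.

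Genes of the same pathways outside the 41 were counted in 9 lists, and edgeR called none of them, with 3 at an unadjusted p under 0.05 (Slc25a37, Rsad2 and Gtf2h4). Among 14 further genes of cluster synthesis, export and delivery, 6 differences were positive and 8 negative (median -0.12), and without wild type 2, 9 were positive and 5 negative (median 0.19). The mitochondrial iron importer Slc25a37 was at 31.6 and 38.8 CPM in the wild type and 54.3 and 82.7 CPM in the knockout, with a log2 fold change of 0.96 (SE 0.33, edgeR adjusted p = 0.562). Gclc, which begins the synthesis of glutathione, was at 203 and 204 against 299 and 331 CPM (log2 fold change 0.63, adjusted p = 0.633). Both genes had knockout libraries above both wild type libraries.

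Among 19 other genes for cluster-holding proteins, 10 differences were positive and 9 negative, with a median of 0.01 that was negative (-0.16 to -0.08) in each fit without 1 library. Rsad2 (viperin), an antiviral enzyme induced by interferon, was at 6.92 and 4.22 CPM in the wild type and 37.7 and 15.8 CPM in the knockout. Its log2 fold change of 2.26 (SE 0.53) did not pass edgeR's test (adjusted p = 0.545) and was called by DESeq2. All 7 cluster-holding subunits of the respiratory chain had negative differences (median -0.30), among them Ndufs1 and Ndufv2 of complex I, each at -0.40. Without wild type 2, 4 of the 7 were negative and the median was -0.03.

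The partners of individual members gave no called gene either. Of 7 genes for lipoylation and lipoylated proteins, 5 were negative (median -0.25), with Lipt2 at -0.68 and Dlst at -0.55. Of 8 electron transfer partners of Etfdh, 5 were negative (median -0.11). Among them the acyl-CoA dehydrogenase Acads was at 104 and 279 CPM in the wild type and 115 and 58.3 CPM in the knockout (log2 fold change -1.14, edgeR adjusted p = 0.631), and Ivd was at -0.33. Of 9 TFIIH partners of Ercc2, 6 were negative (median -0.05), opposite in sign to Ercc2. Gtf2h4 was at 32.6 and 34.8 against 21.2 and 18.4 CPM (log2 fold change -0.76, adjusted p = 0.597), and Gtf2h5 was at -0.54. The Elongator partners of Elp3 split into 3 positive and 2 negative (Elp6 -0.69 and Elp5 -0.52), but all 5 were negative without wild type 2 (median -0.13) and without knockout 1 (median -0.35), and 3 were negative with scaling by library totals. The 5 diphthamide partners split into 2 positive and 3 negative (Dph6 0.48 and Dnajc24 -0.47). Of 6 purine breakdown partners of Xdh, 5 were tested and 4 were negative, with Urad at -1.05 and Ada at -0.73, and Allc had 0 counts in all 4 libraries. Several of these splits turned without wild type 2: the medians became 0.10 for the purine breakdown partners (3 positive, 2 negative), 0.30 for the diphthamide partners (3 positive, 2 negative), 0.12 for the electron transfer partners (4 of each sign) and 0.04 for the TFIIH partners (5 positive, 4 negative).

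Markers of several other cell types also shifted between the labels, but edgeR called none of them at an adjusted p under 0.05. At the same threshold DESeq2 called 4 erythroid, 2 macrophage and 2 neutrophil markers, with 1 stellate cell and fibroblast marker and 1 proliferation marker. All 7 macrophage markers were lower in each knockout library than in either wild type library, with summed levels of 1040.4 and 1277 CPM in the wild type and 632 and 339.8 CPM in the knockout, and none was at 0 in any library. The 5 tested erythroid markers did so too (summed 956 and 2172 against 212 and 150.3 CPM). So did the 4 neutrophil markers (23.0 and 62.2 against 12.3 and 13.7 CPM, with Retnlg at 0 in at least 1 library). Of all genes tested, 20.1% had groups set apart in that direction, and the excess among these markers was not tested. The 5 Kupffer cell markers were negative with overlapping groups (5.66 and 147 against 8.76 and 18.9 CPM, with Clec4f and Timd4 at 0 in at least 1 library), but all 5 were positive without wild type 2, with a median of 2.01. Of the endothelial markers, 4 of 5 were negative (133 and 136 against 95.9 and 71.8 CPM). The 6 stellate cell and fibroblast markers were negative (1369 and 1181 against 621 and 1119 CPM), and proliferation markers split into 3 positive and 7 negative (1314 and 1038 against 1016 and 902 CPM). T cell markers (8.88 and 4.35 against 8.45 and 9.08 CPM) were positive for 4 of 5, and for 3 of 5 without wild type 2. Of the B and plasma cell markers (3.38 and 2.73 against 2.65 and 5.05 CPM), 2 were tested, 1 of each sign. Cholangiocyte markers (38.9 and 50.8 against 39.5 and 61.4 CPM) split into 1 positive and 3 negative, and all 4 were positive without wild type 2. Of 4 pancreatic acinar markers only Cela1 was tested, at 18.1 and 46.0 against 6.35 and 13.3 CPM. Prss2 had 0 counts in all 4 libraries. Pnlip had 1 count, in wild type 1, and Cpa1 had 8 counts, all in wild type 2. The part of these shifts in the differences of the cluster genes was not tested.

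Levels of different genes were compared per length, as CPM per kilobase of merged exons averaged over the 4 libraries. The chaperone Hspa9 was highest at 195, followed by the CDGSH proteins Cisd3 at 156 and Cisd1 at 67.9, the carrier Glrx5 at 41.8 and the scaffold Iscu at 28.0. The lowest were Cdkal1 at 1.15, Brip1 at 1.16, Mutyh at 1.94 and Nubpl at 1.99. The third CDGSH gene, Cisd2, was much lower at 7.34, below Elp3 at 19.9. The deposited FPKM gives a different order for some genes. Its implied length equalled the sum of all distinct annotated exons, with overlapping exons counted repeatedly, for all 41 genes, and exceeded the merged exon length for 39. For Isca2 the implied length was 6406 bases against 1838 merged bases, and for Nubp2 7891 against 1959, so their deposited FPKM understates them relative to single-isoform genes such as Cisd1. Comparisons of 1 gene between libraries are not affected, since the length is constant.

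**Figure D5:**
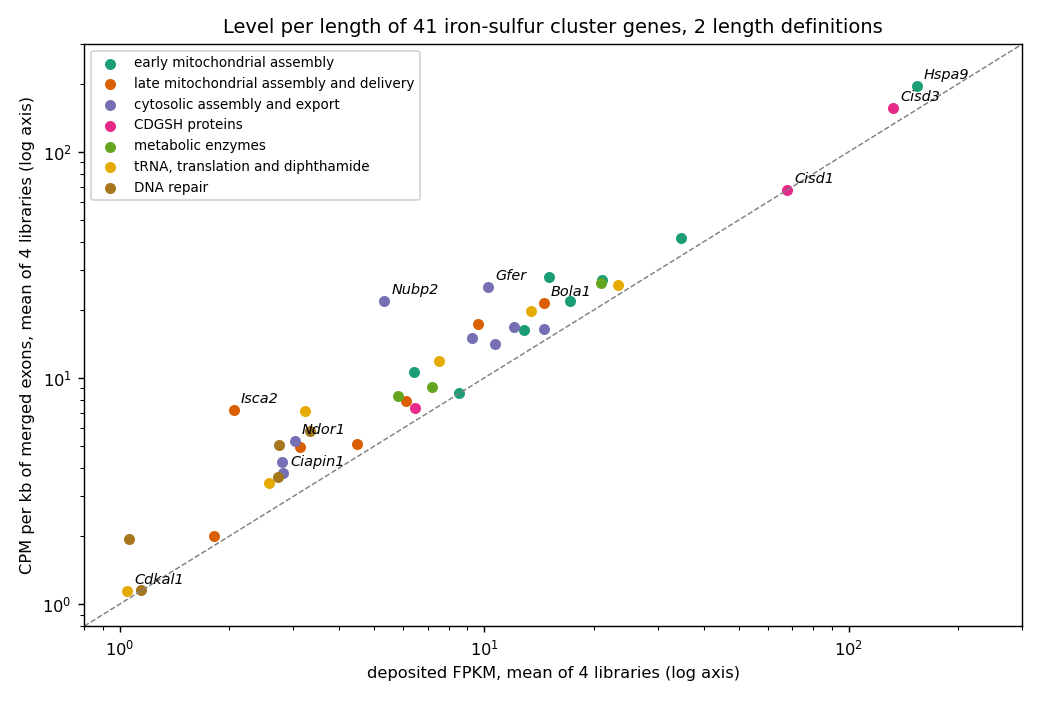
Mean CPM per kilobase of merged exons against mean deposited FPKM for the 41 genes (both log axes, each point 1 gene, coloured by role); the dashed line marks equal values. All 41 points lie on or above the line, and Isca2, Nubp2 and Gfer lie farthest above it.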

How the data were processed

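Poly(A) RNA sequencing of 4 tumours (2 per group) was used as deposited. Libraries were made with the VAHTS mRNA-seq V2 kit after RNeasy extraction, per the labels' protocols. The authors deposited whole-number read counts and FPKM per Ensembl gene in 1 table, and the submitters' processing notes name mm10, edgeR, StringTie, HISAT2 and SAMtools 1.3.1 without roles. The deposited FPKM gave 1 length per gene in all libraries (within 1%, for 100% of 14371 genes with at least 10 counts), so only counts were tested. Symbols came from GENCODE M21, which matched 55227 identifiers and not 260. Of duplicate symbols, the best counted kept the name.

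Genes passing filterByExpr were scaled by TMM and fitted over all 4 libraries with edgeR 4.0.16 in R 4.3.3. Its quasi-likelihood test was two-sided, p-values were adjusted by Benjamini-Hochberg over 16310 genes, and the threshold was 0.05. SEs and 95% intervals come from that fit, and CPM are TMM-scaled. An exact permutation test of 2 against 2 cannot go below 0.333. Depth was 15918349 to 17052943 counts, and floors of 3 counts cover counting error only. Alternatives were another scaling, other filters, DESeq2 1.42.0, limma-voom (limma 3.58.1), a replicate block and leaving out each library. Removing the genes of mitochondrial DNA and summing genes that share sequence were added after seeing the data.

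The 41 members and the other gene lists were chosen with earlier results of these data known. Values in all 4 libraries are given for members with an unadjusted p under 0.05 and, in each role, for the member with the smallest p and that with the highest deposited FPKM; other pathway lists name up to 2 tested genes with the smallest p. Fdx2 and Ciao3 were matched through RefSeq synonyms. Near-identical copies were transcripts of another gene at 95% identity or more over at least 200 bases. Some values that this rule names are not reported here.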

Additional observations from a re-analysis of the deposited data

How the results depend on the processing

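No member was called under any setting run. For 41 of 41 members the sign of the difference was the same under the other scalings, filters and tools and under the replicate block, and only leaving out a library changed signs. Over all genes, calls numbered 0 in the reported fit, 1 with library totals, 148 with DESeq2, 1 with limma-voom, 4 with the replicate block and 0 to 409 leaving out 1 library (409 without wild type 1, 68 without wild type 2, 0 without knockout 1, 3 without knockout 2). Under the replicate block the members gave 0 calls, 3 at an unadjusted p under 0.05 and 27 negative differences; same-numbered libraries share only a number, their deviations from the group means correlating at 0.121. Leaving out 1 library, members at an unadjusted p under 0.05 numbered 0 (without knockout 2) to 8 (without wild type 1), negative members 17 (without wild type 2) to 28 (without wild type 1), and negative mitochondrial assembly members 8 to 15. Members whose groups did not overlap numbered 19, and 26 to 40 with 1 library fewer, which by construction makes overlap rarer. Log2 fold changes that changed sign ranged, over the fits without 1 library, from -0.35 to 0.10 for Iscu, -0.17 to 0.02 for Fdx1, -0.25 to 0.17 for Fdxr, -0.52 to 0.02 for Glrx5, -0.38 to 0.17 for Isca2, -0.55 to 0.16 for Iba57, -2.59 to 1.67 for Bola1, -0.29 to 0.04 for Bola3, -0.01 to 0.34 for Ciao1, -1.05 to 0.07 for Nubp2, -0.42 to 0.25 for Bola2, -0.70 to 0.03 for Cisd1, -0.13 to 0.41 for Cisd2, -0.01 to 0.35 for Cisd3, -0.76 to 0.12 for Lias, -0.24 to 0.50 for Etfdh, -0.18 to 0.38 for Xdh, -0.64 to 0.15 for Elp3, -0.57 to 0.04 for Cdkal1, -0.46 to 0.03 for Cdk5rap1, -1.01 to 0.43 for Dph1 and -0.79 to 0.16 for Tfrc. The cause of these changes was not tested. With 1 library in a group, its spread is assumed to be that of the other group. With 2 libraries per group, a 2-fold difference in at least 1 direction was not excluded for 27 of the 41 members. Differences above 2-fold also went uncalled, as for Ciapin1 (log2 fold change 1.02) and Ndor1 (1.19).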
